A study of Mus musculus with 16 samples.

Results

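The genes described here are 10 genes, all except Smim38 of amino acid, creatine and zinc handling: Tdh, Gcat, Gamt, Gatm, Gnmt, Slc38a5, Slc30a2, Smim38, Phgdh and Psat1. They were chosen by name because of how they differed between B7-H4 knockout and control islets, and all 10 had 1 row in each of the 2 expression tables, out of 17864 genes in either table. Each was examined over all 16 libraries for whether it followed Prss2, Cpa1 and Cela2a, which encode a trypsinogen, a carboxypeptidase and an elastase of pancreatic acinar cells. The libraries were bulk RNA-seq of pancreatic islets from C57BL/6J mice, in 4 groups of 4. The cKO group (libraries cKO8, cKO9, cKO12 and cKO38) came from chow-fed B7-H4 fl/fl animals (loxP sites around exon 2 of Vtcn1, the gene of B7-H4) that also carried Cre under the rat insulin II promoter (Rip-Cre); the labels say only cKO, a name the study's methods give to this line, beside a Pdx-Cre line under another name. The Flox group (Flox16, Flox17, Flox20 and Flox21) came from chow-fed B7-H4 fl/fl littermates without Cre, so the deletion and the Cre transgene cannot be told apart. The Ctrl group (Ctrl1, Ctrl2, Ctrl3 and Ctrl5) and the OE group (OE1 to OE4) came from mice fed a high-fat diet for 8 weeks from 6 weeks of age, which then received AAV2/8-Ctrl or AAV2/8-Ins2-B7H4 by infusion into the pancreatic duct. In these mice, per the study's text, islets were isolated some weeks after the infusion, so the 8 weeks end before isolation. The study's methods describe these mice as Flox mice, its GEO text calls them WT, and the age of the chow-fed mice at islet isolation is not given in the sources used here. Nothing states that each library is 1 animal, so the tests measure the spread between libraries.

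Most of the genes belong to neighbouring steps of metabolism. Threonine dehydrogenase (Tdh) and glycine C-acetyltransferase (Gcat) act in sequence in mitochondria to turn threonine into glycine and acetyl-CoA, and Tdh is known for its high level in mouse embryonic stem cells. Phgdh and Psat1 catalyse successive steps of serine synthesis, Gatm and Gamt make creatine from arginine, glycine and a methyl group of S-adenosylmethionine, and Gnmt spends the same methyl donor on glycine. Slc38a5 carries glutamine, serine and other neutral amino acids across the plasma membrane, and Slc30a2 loads zinc into vesicles. Acinar cells secrete large amounts of enzyme protein, and Gnmt, Gatm and Slc30a2 are known to be abundant in the exocrine pancreas, which surrounds the islets that were handpicked after collagenase digestion. In bulk islets, fewer cells of a type and less RNA per cell cannot be told apart.

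The values are FPKM (fragments per kilobase of transcript, scaled to the mapped reads of the library), which are per length. Acinar content differed widely between libraries. The 21 measured genes of an acinar list took 35.0 to 44.6% of all FPKM in cKO libraries, 7.11 to 34.2% in Flox libraries and 10.9 to 14.1% in OE libraries. In the Ctrl group this share was 5.397% in Ctrl1, 55.8% in Ctrl2, 71.9% in Ctrl3 and 2.11% in Ctrl5. A beta-cell list took 25.8 to 32.8% in cKO libraries, 35.3 to 54.7% in Flox libraries and 4.37% in Ctrl3. Vtcn1 was at 40.0 to 128 FPKM in OE libraries and at 0.0636 to 0.371 FPKM in Ctrl libraries, and at no more than 0.216 FPKM in any cKO or Flox library, too low for its loss to be seen in the cKO group.

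Tdh (mm10 chr14:63492347-63509092, minus strand) was above 1 FPKM in 5 of the 16 libraries. It was at 3.95 FPKM in cKO8, 10.96 FPKM in cKO9, 6.97 FPKM in cKO12 and 6.46 FPKM in cKO38. In Flox libraries it was at 0.0846 FPKM in Flox16, 1.61 FPKM in Flox17, 0.0798 FPKM in Flox20 and 0.04999 FPKM in Flox21. Every cKO library lay above every Flox library, and Flox17 lay far above the other Flox libraries. In Ctrl libraries Tdh was at 0.0180 FPKM in Ctrl1, 0.0631 FPKM in Ctrl2, 0.0699 FPKM in Ctrl3 and 0.112 FPKM in Ctrl5. In OE libraries it was at 0.0915 FPKM in OE1, 0.0865 FPKM in OE3 and 0.123 FPKM in OE4, and it was listed at 0 in OE2. Ctrl and OE libraries therefore held only traces of Tdh, also where acinar genes were most abundant. The FPKM of a gene moved in whole steps, which count fragments up to a common factor, and on that scale Tdh stood at 225 to 621 steps in cKO libraries, at 94 in Flox17 and at 3 to 5 in the other Flox libraries. It stood at 1 to 6 steps in Ctrl libraries and at 0 to 8 in OE libraries.

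**Figure D1:**
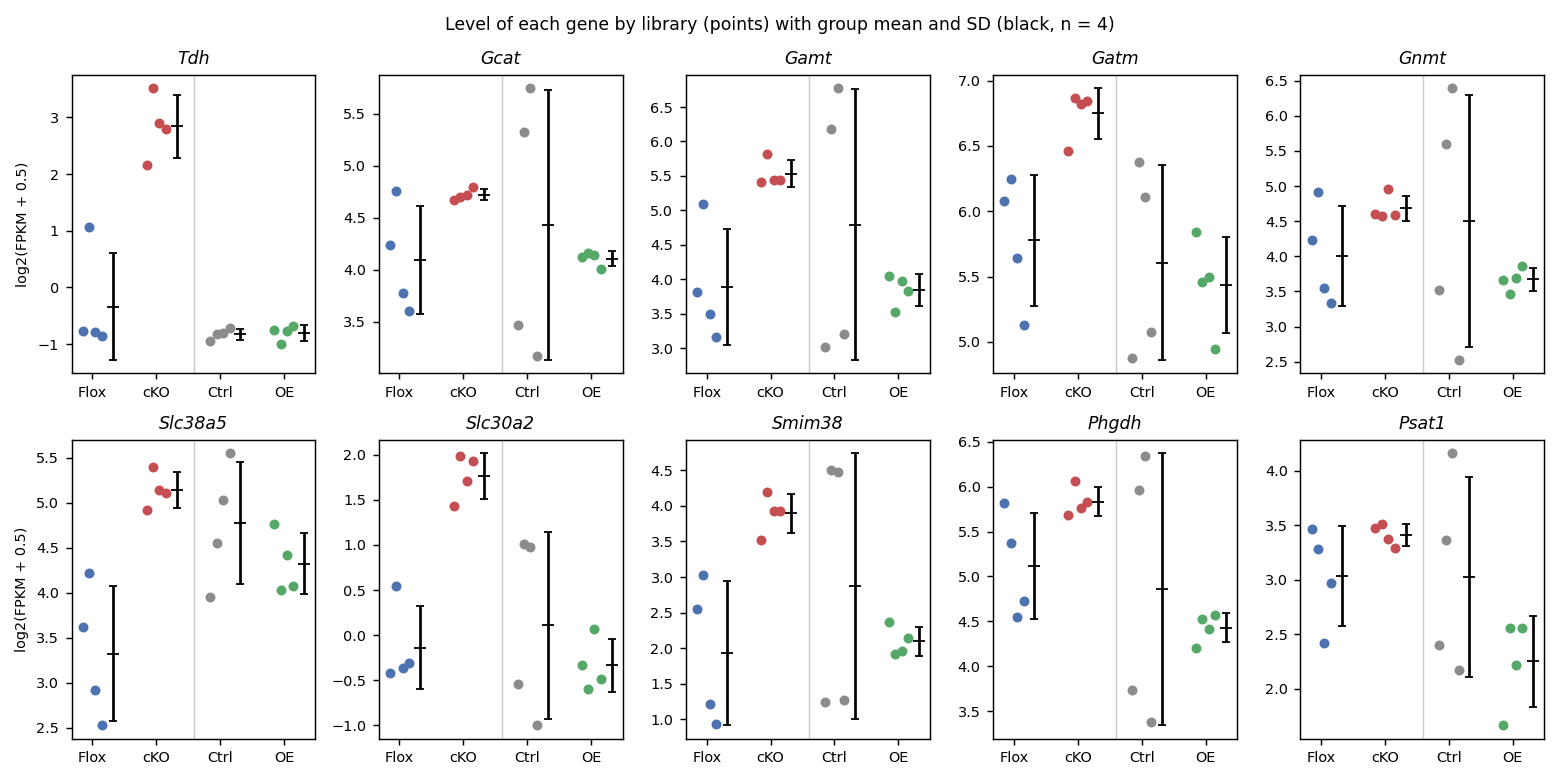
Level of each of the 10 genes as log2(FPKM + 0.5), with 1 point for each library in the Flox, cKO, Ctrl and OE groups and the group mean and SD in black (n = 4). The grey line separates the 2 tables, which were normalised separately. Tdh is high in the 4 cKO libraries, raised in 1 Flox library and near the floor in all Ctrl and OE libraries, while most other genes split the Ctrl libraries into a high and a low pair.

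Gcat, the enzyme that follows Tdh, did not have the pattern of Tdh. It was at 25.1, 25.5, 25.8 and 27.3 FPKM in cKO8, cKO9, cKO12 and cKO38, and at 18.3, 26.5, 13.2 and 11.6 FPKM in Flox16, Flox17, Flox20 and Flox21. The groups overlapped at Flox17. In high-fat diet islets Gcat was at 10.6, 39.6, 53.2 and 8.50 FPKM in Ctrl1, Ctrl2, Ctrl3 and Ctrl5, and at 15.6 to 17.4 FPKM in OE libraries. Ctrl2 and Ctrl3 thus held 39.6 and 53.2 FPKM of Gcat beside 0.0631 and 0.0699 FPKM of Tdh. GENCODE vM21 lists 2 overlapping genes named Gcat (chr15:79030874-79038353 and chr15:79030901-79042531, both on the plus strand), and how their fragments were divided is not given in the sources used here.

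The creatine enzymes Gatm (chr2:122594467-122611303, minus strand) and Gamt (chr10:80258151-80261012, minus strand) were measured at 8 or more FPKM in all libraries except Ctrl1, where Gamt was at 7.55 FPKM. Gamt was at 42.0, 56.2, 42.8 and 43.1 FPKM in cKO8, cKO9, cKO12 and cKO38, and at 13.5, 33.5, 10.8 and 8.44 FPKM in Flox16, Flox17, Flox20 and Flox21. The 2 groups did not overlap, and Flox17 was again the highest Flox library. In high-fat diet islets Gamt was at 72.1 FPKM in Ctrl2 and 109 FPKM in Ctrl3, but at 8.71 FPKM in Ctrl5 and 11.02 to 15.97 FPKM in OE libraries. Gatm, which catalyses the first and rate-limiting step of creatine synthesis, varied less. It was at 87.5, 116, 112 and 115 FPKM in cKO8, cKO9, cKO12 and cKO38, and at 67.2, 75.6, 49.5 and 34.5 FPKM in Flox16, Flox17, Flox20 and Flox21. Here too all cKO libraries were above all Flox libraries. Gatm was at 28.8, 82.6, 68.4 and 33.2 FPKM in Ctrl1, Ctrl2, Ctrl3 and Ctrl5, and at 30.3 to 56.8 FPKM in OE libraries.

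Gnmt (chr17:46725664-46729168, minus strand) varied strongly within the Ctrl group. It was at 10.9, 47.9, 83.7 and 5.25 FPKM in Ctrl1, Ctrl2, Ctrl3 and Ctrl5, and at 10.5 to 14.1 FPKM in OE libraries. In chow-fed islets it was at 23.3 to 30.5 FPKM in cKO libraries and at 18.3, 29.7, 11.2 and 9.63 FPKM in Flox16, Flox17, Flox20 and Flox21, so that the groups overlapped. The serine enzymes overlapped between cKO and Flox as well. Phgdh (chr3:98313170-98339990, minus strand), the first enzyme of the route, was at 51.1 to 66.4 FPKM in cKO libraries and at 55.99, 40.99, 22.96 and 25.9 FPKM in Flox16, Flox17, Flox20 and Flox21. It was at 12.9, 62.1, 80.6 and 9.91 FPKM in Ctrl1, Ctrl2, Ctrl3 and Ctrl5. Psat1 (chr19:15904678-15947337, minus strand) was the lower of the 2 serine enzymes in every library, at 9.26 to 10.9 FPKM in cKO libraries, 4.84 to 10.6 FPKM in Flox libraries, 4.02 to 17.4 FPKM in Ctrl libraries and 2.67 to 5.402 FPKM in OE libraries.

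The 2 transporters separated cKO from Flox libraries. Slc38a5 (chrX:8271133-8280179, plus strand) was at 29.7, 41.6, 34.8 and 34.1 FPKM in cKO8, cKO9, cKO12 and cKO38, and at 11.8, 18.2, 7.07 and 5.27 FPKM in Flox16, Flox17, Flox20 and Flox21. Slc30a2 (chr4:134343181-134354484, plus strand) was at 2.20, 3.45, 2.77 and 3.32 FPKM in the same cKO libraries, and at 0.247, 0.960, 0.276 and 0.306 FPKM in the same Flox libraries. Neither gene overlapped between these groups. In high-fat diet islets they parted. Slc30a2 was at 0.185, 1.51 and 1.47 FPKM in Ctrl1, Ctrl2 and Ctrl3, was listed at 0 in Ctrl5 and was at 0.159 to 0.545 FPKM in OE libraries. Slc38a5 was at 15.04, 23.0, 32.1 and 46.4 FPKM in Ctrl1, Ctrl2, Ctrl3 and Ctrl5, and at 15.8 to 26.8 FPKM in OE libraries. Ctrl5, the library with the fewest acinar fragments, thus held the most Slc38a5. Ctrl5 also stood apart from the other Ctrl and OE libraries in several cell type lists. An alpha-cell list took 13.6% of all FPKM there against 0.110 to 4.35% in the others, a delta-cell list took 2.18% against 0.0314 to 1.06%, and the endothelial, macrophage and fibroblast lists were at their highest in that table. Their part in the level of Slc38a5 was not tested. Smim38 (chr7:145205823-145208119 in RefSeq), which encodes a small membrane protein, was at 11.01, 17.9, 14.7 and 14.8 FPKM in cKO8, cKO9, cKO12 and cKO38, and at 5.37, 7.64, 1.81 and 1.42 FPKM in Flox16, Flox17, Flox20 and Flox21. The groups were apart. It was at 1.86, 22.1, 21.8 and 1.92 FPKM in Ctrl1, Ctrl2, Ctrl3 and Ctrl5 and at 3.29 to 4.66 FPKM in OE libraries.

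Because the genes were chosen on the difference between cKO and Flox islets, that difference is given as a description without a test. On the log2(FPKM + 0.5) scale, which understates the change of low genes, the cKO minus Flox difference was 3.18 (standard error 0.51) for Tdh, 1.97 (0.49) for Smim38, 1.90 (0.22) for Slc30a2, 1.82 (0.32) for Slc38a5 and 1.64 (0.39) for Gamt. It was 0.97 (0.21) for Gatm, 0.72 (0.24) for Phgdh, 0.67 (0.30) for Gnmt, 0.63 (0.21) for Gcat and 0.38 (0.21) for Psat1. The median over all 11804 genes tested was -0.34. Tdh, Gamt, Gatm, Slc38a5, Slc30a2 and Smim38 were higher in all 4 cKO libraries than in any Flox library, which was so for 1.32% of all genes. The value for Tdh depended on the constant added before the logarithm, at 2.53 with 1 FPKM and 4.48 with 0.1 FPKM, and was 3.65 without Flox17.

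Prss2, Cpa1 and Cela2a were themselves higher in cKO libraries, at 27193 ± 3294, 15702 ± 1150 and 50004 ± 5716 FPKM, than in Flox libraries, at 12615 ± 8796, 7532 ± 4702 and 23331 ± 16030 FPKM (SD, n = 4). Prss2 belongs to a family of close copies, between which fragments may have been divided. Of 21 acinar genes tested, 0 passed an adjusted p of 0.05 in limma and 13 had an unadjusted p under 0.05, all higher, with a median log2 difference of 1.45. The genes described were therefore also expressed per 1000 FPKM summed over Prss2, Cpa1 and Cela2a. Per 1000 acinar FPKM, Tdh was at 0.0497, 0.107, 0.0759 and 0.0663 in cKO8, cKO9, cKO12 and cKO38, and at 0.00147, 0.0206, 0.00356 and 0.00317 in Flox16, Flox17, Flox20 and Flox21. The groups stayed apart on this scale. They also stayed apart for Slc30a2 (0.0277 to 0.0341 in cKO and 0.00428 to 0.0194 in Flox), Smim38 (0.138 to 0.174 and 0.0806 to 0.0978) and Slc38a5 (0.350 to 0.405 and 0.205 to 0.334). Over all 11801 genes, 0.0508% were higher in all 4 cKO libraries on this scale. Gamt overlapped, at 0.443 to 0.546 in cKO and 0.235 to 0.536 in Flox libraries. Gcat, Gatm, Gnmt, Phgdh and Psat1 had lower means in cKO than in Flox libraries per 1000 acinar FPKM, for example 0.111 ± 0.0163 and 0.246 ± 0.152 for Psat1 (SD, n = 4). Gcat was lower in all 4 cKO libraries (0.248 to 0.315) than in any Flox library (0.318 to 0.739), as were 28.6% of all genes, and the groups of the other 4 overlapped.

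In high-fat diet islets the same question was asked of B7-H4 overexpression, in a comparison that had not been used to choose the genes. Earlier results of these data were known, however, when the genes were chosen. In limma, 9 of the 10 genes had the mean of 0.5 FPKM needed for testing, 0 of them had an adjusted p under 0.05, and the smallest unadjusted p was 0.129, for Psat1. Over all genes, 0.033% were called higher and 0% lower (adjusted p under 0.05 with a log2 difference beyond 1 in size). Without adjustment, 560 were higher and 53 were lower by the same limits. The OE minus Ctrl difference of Gamt was -0.95 (standard error 0.70, adjusted p = 0.592), that of Gnmt was -0.84 (0.65, adjusted p = 0.593) and that of Gatm was -0.17 (0.46, adjusted p = 0.835), while the median over 12132 genes was 0.44. Tdh was too low for limma, and its difference of 0.02 had an exact permutation p of 0.743 (two-sided, n = 4 per group), where 0.0286 is the smallest this design allows. All 10 genes overlapped between Ctrl and OE, while 5.61% of all genes were higher and 0.964% lower in all 4 OE libraries than in any Ctrl library. These comparisons rest on a Ctrl group that held 2 libraries rich in acinar genes. Without Ctrl2 and Ctrl3, an alternative chosen after seeing the data, the differences turned positive for Gcat at 0.79 (standard error 0.11, adjusted p = 0.0061), Phgdh at 0.87 (0.14, adjusted p = 0.00858), Smim38 at 0.84 (0.15, adjusted p = 0.0107) and Gamt at 0.74 (0.16, adjusted p = 0.0162), and 2.44% of all genes were higher at an adjusted p under 0.05. The remaining Ctrl libraries had acinar shares of 5.397 and 2.11%, all below those of the OE libraries. The part of acinar content in these differences, without Ctrl2 and Ctrl3, was not tested. Limma was also run on all Ctrl and OE libraries with the mean log2(FPKM + 0.5) of Prss2, Cpa1 and Cela2a as a covariate. All 9 genes tested then had differences below 0, beside a median over all genes of 0.36. Gnmt had -0.65 (adjusted p = 0.0473), Gamt -0.75 (adjusted p = 0.0618) and Psat1 -0.69 (adjusted p = 0.0808). The others ran from -0.58 for Smim38 to -0.096 for Gatm, with larger adjusted p.

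Whether a gene followed the acinar genes was measured as the slope of its log2(FPKM + 0.5) on the acinar score, the mean of the same quantity over Prss2, Cpa1 and Cela2a, with group as a term. A slope of 1 means a change in proportion to the acinar genes. In Ctrl and OE libraries, 8 of the 9 genes tested had a slope above 0 at an adjusted p under 0.05 (limma), beside 2.47% of all 12129 genes, whose median slope was -0.30. With a minimum mean of 1 FPKM, which left Slc30a2 out, 7 of 8 did. The steepest were Gamt at 0.72 (standard error 0.08, adjusted p = 0.000106), Smim38 at 0.69 (0.07, adjusted p = 8.8e-05), Gnmt at 0.67 (0.06, adjusted p = 3.56e-05) and Phgdh at 0.57 (0.06, adjusted p = 8.37e-05). Gcat had a slope of 0.49, Psat1 of 0.32 and Gatm of 0.27, all with standard errors between 0.05 and 0.08 and adjusted p up to 0.00392. Slc30a2 had 0.39 (standard error 0.05), which is a description only. Its mean was 0.548 FPKM, and it reached the filter only through Ctrl2 and Ctrl3, the libraries richest in acinar genes. The slope of Slc30a2 also depended on the constant added, at 0.26 with 1 FPKM and 0.75 with 0.1 FPKM. With 0.1 FPKM it was the steepest, beside 0.74 for Gamt and Smim38. Slc38a5 had a slope of -0.03 (standard error 0.10, adjusted p = 0.758). The slope of Slc38a5 depended on Ctrl5, and was 0.24 without it (adjusted p = 0.0269).

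The range behind these slopes came largely from Ctrl2 and Ctrl3. Prss2 was 48.2-fold, Cpa1 42.7-fold and Cela2a 30-fold higher in Ctrl3 than in Ctrl5. Between the same libraries Gnmt was 15.9-fold, Gamt 12.5-fold, Smim38 11.4-fold, Phgdh 8.13-fold, Gcat 6.27-fold, Psat1 4.33-fold and Gatm 2.06-fold higher in Ctrl3. Slc38a5 was at 0.693 times and Tdh at 0.626 times its level in Ctrl5. In the 6 libraries without Ctrl2 and Ctrl3, where acinar shares ran only from 2.11 to 14.1%, Gnmt alone of 8 genes tested kept a slope above 0 at an adjusted p under 0.05 (0.66, adjusted p = 0.0353), beside 4.4% of all genes. The other slopes there were 0.22 for Gcat, 0.17 for Phgdh, 0.044 for Smim38, 0.018 for Gatm, -0.043 for Psat1, -0.057 for Gamt and -0.93 for Slc38a5 (standard error 0.39, adjusted p = 0.189). Each of the 8 genes kept its slope above 0 and an adjusted p under 0.05 when 1 library was left out, in every fit in which it was tested; Slc30a2 fell under the mean of 0.5 FPKM without Ctrl2 or Ctrl3.

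**Figure D2:**
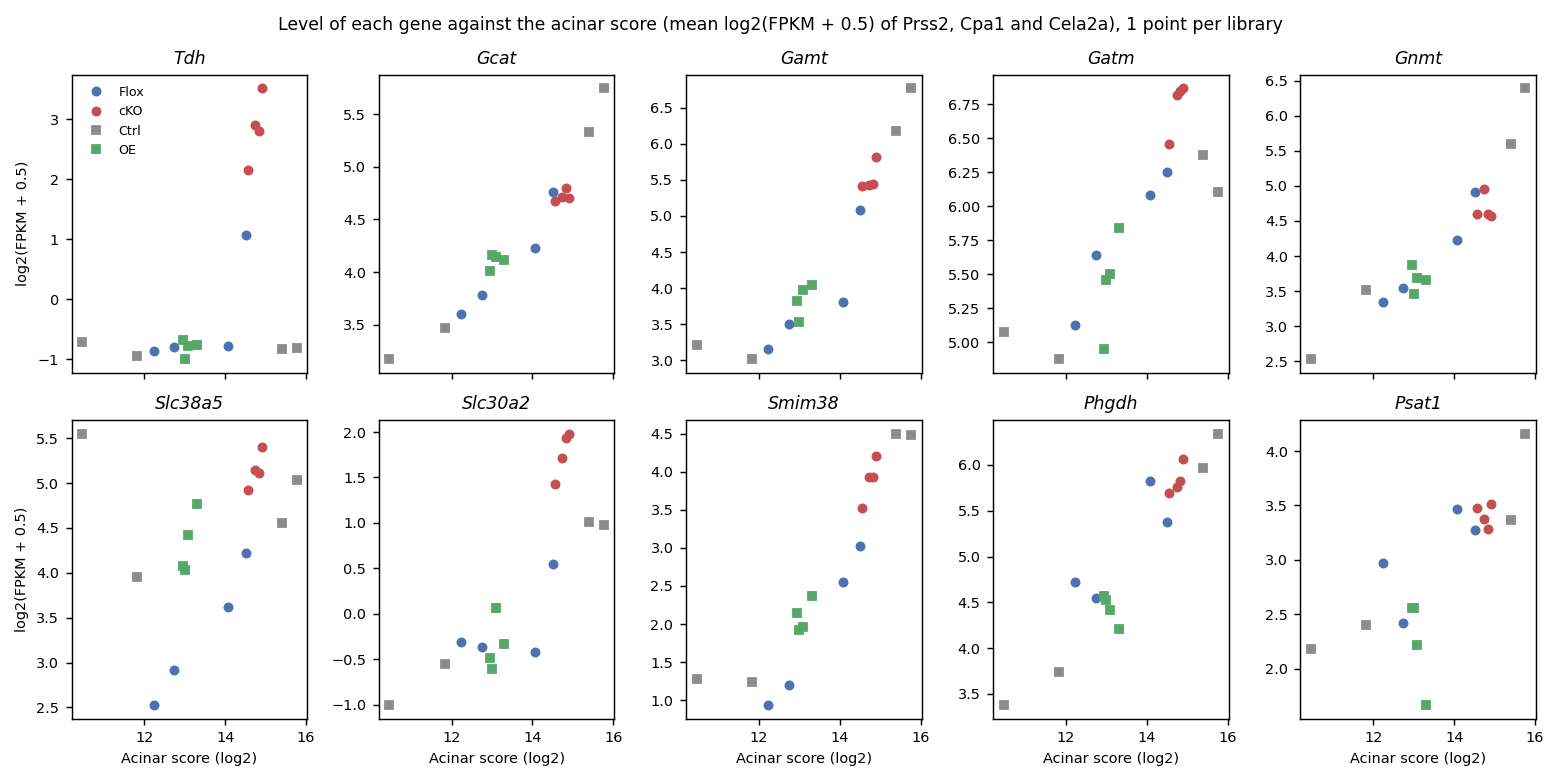
Level of each gene as log2(FPKM + 0.5) against the acinar score, the mean log2(FPKM + 0.5) of Prss2, Cpa1 and Cela2a, with 1 point per library (circles for Flox and cKO, squares for Ctrl and OE). Tdh stays at the floor in Ctrl2 and Ctrl3, the 2 libraries farthest to the right, while it reaches 3.95 to 10.96 FPKM in cKO libraries, and Slc38a5 has its highest value in the library farthest to the left.

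In cKO and Flox libraries, where the genes had been chosen, the slopes are a description. Within groups they were 0.96 for Smim38, 0.70 for Slc38a5, 0.69 for Gamt, 0.68 for Tdh, 0.63 for Gnmt, 0.47 for Gatm and Phgdh, 0.46 for Gcat and 0.29 for Psat1 and Slc30a2, with a median over all genes of -0.24 and 1.97% of all genes rising. With the acinar score as a covariate, the cKO minus Flox difference fell to 2.25 (standard error 0.53) for Tdh, 1.51 (0.27) for Slc30a2, 0.87 (0.15) for Slc38a5, 0.70 (0.27) for Gamt and 0.66 for Smim38. It was 0.33 for Gatm, 0.08 for Phgdh, 0.004 for Gcat, -0.02 for Psat1 and -0.19 for Gnmt. The acinar score and the group moved together in these libraries, and no gene of the 11804 was called in that fit by limma, with 23 passing the same limits without adjustment.

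**Figure D3:**
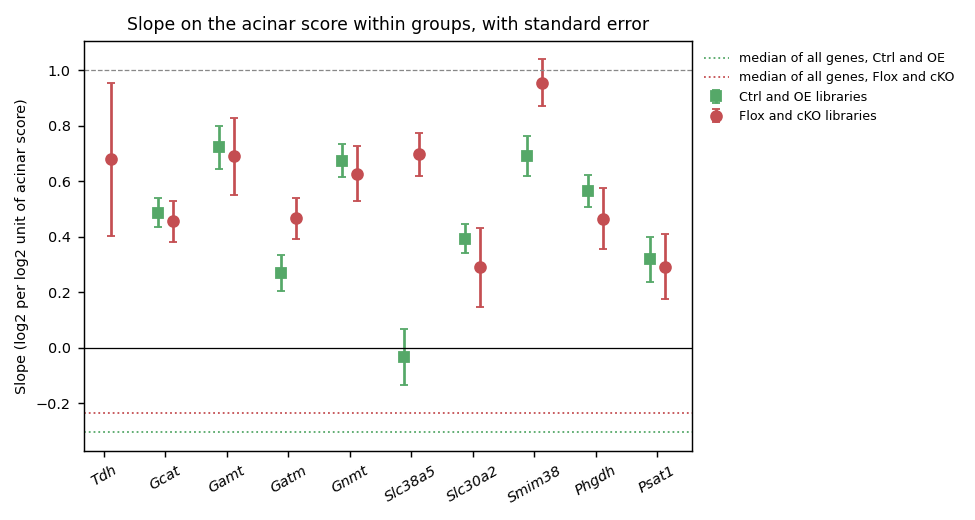
Slope of each gene on the acinar score within groups (log2 per log2 unit) with its standard error, in Ctrl and OE libraries (squares) and in Flox and cKO libraries (circles). The dashed line at 1 marks proportion to the acinar genes and the dotted lines mark the medians of all genes, -0.30 and -0.24. Tdh has no square because it was too low, and Slc38a5 lies at -0.03 in Ctrl and OE libraries and at 0.70 in Flox and cKO libraries.

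Set side by side across the 2 tables, which were normalised separately, the levels in cKO9 and in the acinar-rich libraries Ctrl2 and Ctrl3 differed in their order. Acinar genes took 71.9% of all FPKM in Ctrl3, 55.8% in Ctrl2 and 44.6% in cKO9. Gamt, Gnmt, Gcat, Smim38, Phgdh and Psat1 were higher in Ctrl3 than in cKO9. In Ctrl2 this held for Gamt, Gnmt, Gcat and Smim38, while Phgdh (62.1 against 66.4 FPKM) and Psat1 (9.79 against 10.9 FPKM) were lower than in cKO9. Tdh, at 10.96 FPKM in cKO9 and 0.0699 FPKM in Ctrl3, went the other way, and so did Slc30a2 at 3.45 and 1.47 FPKM, Slc38a5 at 41.6 and 32.1 FPKM and Gatm at 116 and 68.4 FPKM. These 4 genes were also lower in Ctrl2 than in cKO9. Some orders differed with another cKO library in place of cKO9, which had the largest acinar share of its group. Phgdh was higher in Ctrl2 than in any cKO library but cKO9. Psat1 was higher in Ctrl2 than in cKO38 (9.26 FPKM), and Slc38a5 was higher in Ctrl3 than in cKO8 (29.7 FPKM). Tdh, Slc30a2 and Gatm were lower in Ctrl2 and Ctrl3 than in every cKO library. Diet, virus, genotype and table all differ between these libraries and cannot be told apart.

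Promoter sequence was examined for short motifs in RefSeq windows on GRCm38.p6 that run from 250 bases before to 50 bases after each gene's start. These RefSeq starts can differ from the GENCODE gene ends given above. For Slc38a5, Slc30a2 and Psat1, the bases before the RefSeq start lay almost wholly or wholly inside the GENCODE gene. Of the 10 genes, 9 were matched, and Tdh was not. The motifs were TGATGNAAN, the amino acid response element bound by Atf4, CANNTG, the E-box, and TTTCCCA, the half-site that Rbpj proteins read within the element of the acinar factor complex PTF1. They were searched on both strands, and no match overlapped a match to another motif in the genes described or in Prss2, Cpa1 and Cela2a. TTTCCCA was in the windows of Prss2, Cpa1 and Cela2a, and among the genes described in that of Slc38a5 alone, 191 to 185 bases before its RefSeq start. That site lies inside the GENCODE gene. It was in 8.06% of all 32851 promoter windows. TGATGNAAN was in Prss2 and Cpa1 and in none of the genes described, against 3.95% of all windows. CANNTG was in all matched genes except Phgdh and Psat1, and in 72.3% of all windows. The 250 bases before the RefSeq start are printed for Cpa1, Gamt and Slc38a5. Cpa1 holds both rarer motifs. Gamt had the steepest slope in Ctrl and OE libraries with 0.5 FPKM added. Slc38a5 had a slope of -0.03 there (adjusted p = 0.758 in limma), which depended on Ctrl5. Each is printed from 5′ to 3′ along its own strand, with TGATGNAAN and TTTCCCA in capitals (on the other strand the second reads TGGGAAA).
Cpa1 (chr6:30638968-30639217, plus strand): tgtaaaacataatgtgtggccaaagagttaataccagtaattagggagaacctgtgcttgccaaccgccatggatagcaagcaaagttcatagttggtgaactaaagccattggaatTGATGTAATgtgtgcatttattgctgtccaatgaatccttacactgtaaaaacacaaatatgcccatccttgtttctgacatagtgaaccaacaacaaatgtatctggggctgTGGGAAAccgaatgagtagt
Gamt (chr10:80261013-80261262, minus strand): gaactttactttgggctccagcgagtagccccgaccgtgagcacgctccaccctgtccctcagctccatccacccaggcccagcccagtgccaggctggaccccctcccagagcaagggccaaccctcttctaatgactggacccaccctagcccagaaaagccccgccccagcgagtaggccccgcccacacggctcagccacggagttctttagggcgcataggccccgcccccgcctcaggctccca
Slc38a5 (chrX:8271131-8271380, plus strand): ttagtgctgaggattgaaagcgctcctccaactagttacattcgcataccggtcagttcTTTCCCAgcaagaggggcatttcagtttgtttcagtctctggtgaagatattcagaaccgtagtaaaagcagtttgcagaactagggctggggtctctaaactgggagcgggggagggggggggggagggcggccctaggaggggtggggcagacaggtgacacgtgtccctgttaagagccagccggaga

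The other genes of these pathways were taken from lists chosen for their function. Over all genes, 1.02% were higher and 12.8% lower in cKO islets at an adjusted p under 0.05. Beside all comparisons of cKO with Flox below, the acinar share was 35.0 to 44.6% in cKO and 7.11 to 34.2% in Flox libraries. Of 18 further enzymes of serine, glycine and one-carbon metabolism tested in limma, 0 were higher and 1 was lower in cKO islets (Dld, a shared subunit of the glycine cleavage system, log2 difference -0.60, adjusted p = 0.0353), none had an unadjusted p under 0.05 on the higher side, and 3 had one on the lower side. Their median difference was -0.12, against -0.34 over all genes. Of 16 enzymes of methionine and S-adenosylmethionine metabolism, Sardh, which returns the sarcosine made by Gnmt to glycine, was higher at 3.55 ± 0.52 FPKM in cKO and 1.75 ± 0.88 FPKM in Flox libraries (log2 difference 0.92, adjusted p = 0.0242), and Ahcyl1 was lower (-0.62, adjusted p = 0.0326). Creatine transport and kinase genes did not pass in either direction, with 0 of 4 tested at an adjusted or an unadjusted p under 0.05 (limma), and Ckb, the brain-type creatine kinase, had a difference of -0.35 (adjusted p = 0.245). Of 15 enzymes of arginine, ornithine and proline, Prodh was higher (0.82, adjusted p = 0.0315) and Sms, spermine synthase, was lower (-0.63, adjusted p = 0.0423).

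Among 23 other amino acid transporters tested, 2 were higher and 2 lower in cKO islets. Slc38a3, a close relative of Slc38a5, was at 18.8 ± 1.12 FPKM in cKO and 7.11 ± 4.53 FPKM in Flox libraries (log2 difference 1.54, adjusted p = 0.039). Slc1a5, a glutamine exchanger, was also higher (0.65, adjusted p = 0.0456). Slc38a4 was lower at 36.1 ± 3.90 FPKM in cKO and 114 ± 44.7 FPKM in Flox libraries (-1.55, adjusted p = 0.0162), and so was Slc7a2, a carrier of cationic amino acids (-1.05, adjusted p = 0.0193). Of 19 zinc transporters and metallothioneins, 0 were higher and 3 were lower (limma, with 2 and 7 at an unadjusted p under 0.05). Slc30a8, the zinc transporter of insulin granules, was at 229 ± 47.9 FPKM in cKO and 401 ± 74.2 FPKM in Flox libraries (-0.81, adjusted p = 0.0141), opposite in direction to its relative Slc30a2. The other lower genes were Slc39a9 (-0.74, adjusted p = 0.0221) and Slc30a5 (-0.61, adjusted p = 0.043). Of 23 Atf4 targets and tRNA synthetases, which respond to a shortage of amino acids, 0 were higher and Cebpb was lower (-0.72, adjusted p = 0.0408), with 0 and 3 at an unadjusted p under 0.05.

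In OE against Ctrl libraries, 0 genes of these 7 lists had an adjusted p under 0.05 in limma, and without adjustment 8 were higher and 3 were lower. The neutral amino acid transporters with the highest mean FPKM there were Slc38a4 (log2 difference 1.39, adjusted p = 0.591) and Slc38a10 (0.88, adjusted p = 0.591). On the acinar score, however, the lists divided. In Ctrl and OE libraries 16 of the 117 list genes tested rose with the score and 73 fell, beside 2.47% and 89.5% of all genes. The steepest were Slc39a5, a zinc importer, with a slope of 0.93 (adjusted p = 9.62e-07), Slc38a3 with 0.91 (adjusted p = 6.3e-06), Aldh1l1, a folate enzyme, with 0.66 (adjusted p = 2.17e-05), Cth, of transsulfuration, with 0.60 (adjusted p = 0.000309) and Sardh with 0.59 (adjusted p = 7.63e-05). Asns, asparagine synthetase, was the only one of the 23 Atf4 targets and tRNA synthetases to rise, with 0.22 (adjusted p = 0.00132), and 0 of the 4 creatine transport and kinase genes rose while all 4 fell. All 18 acinar genes outside the score rose, with a median slope of 1.02, and so did 6 of 7 genes that regulate acinar cells, such as Rbpjl with 0.79 (adjusted p = 1.72e-05). Of 9 beta-cell genes 0 rose and 8 fell, and all 5 alpha-cell genes fell.

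**Figure D4:**
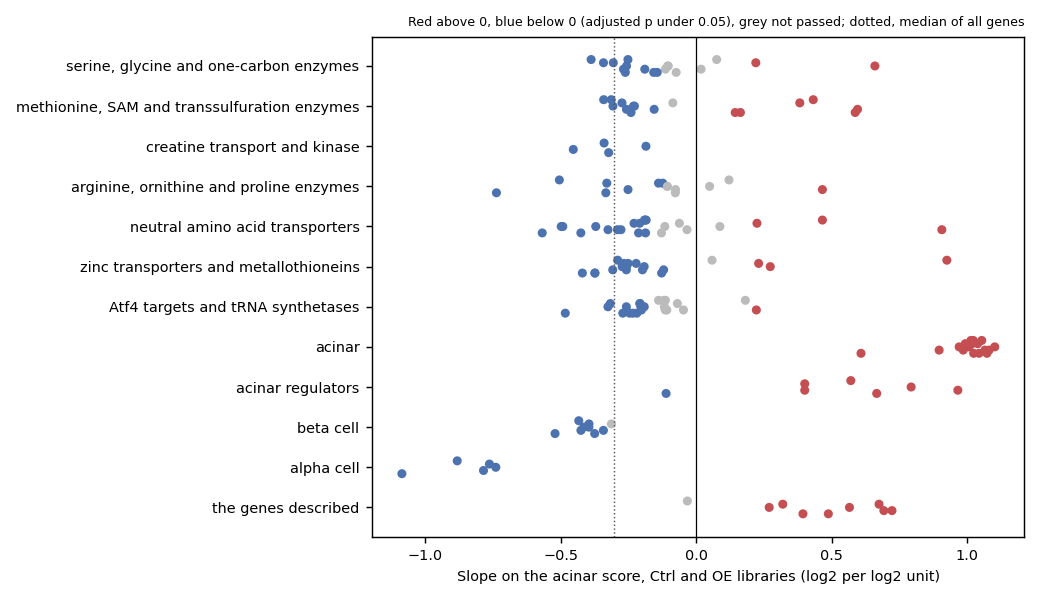
Slope on the acinar score in Ctrl and OE libraries (log2 per log2 unit) for every tested gene of each list, 1 point per gene, in red where it was above 0 and in blue where it was below 0 at an adjusted p under 0.05, and in grey otherwise. The dotted line is the median of all genes at -0.30. The acinar genes gather near 1, 8 of the genes described lie between 0.27 and 0.72, and most other metabolic genes lie below 0.

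Last, genes were ranked by how closely they resembled Tdh, as a description over libraries that share depth and acinar content. By the smaller of the 2 Pearson correlations over the 8 cKO and Flox and the 8 Ctrl and OE libraries, among 11553 genes, the nearest were Rnf39 (0.67), Gbp8 (0.60), Ifi27 (0.57), Cldn9 (0.57) and D17H6S56E-5 (0.56). The Ctrl and OE part of that ranking rests on traces of Tdh of 0 to 8 steps. Over the 8 cKO and Flox libraries alone, a ranking added after its values were seen, the nearest of 11803 genes was Slc30a2 (r = 0.992), with Gamt (0.964) and Slc38a5 (0.962) also among the first 10. The genes ranked between Slc30a2 and Gamt were not among those described. Slc30a2, Gamt and Slc38a5 were chosen together with Tdh on the difference between these same groups. Their high correlation here was therefore largely set by that choice. In both Tdh and Slc30a2, cKO9 was the highest of the cKO and Flox libraries and Flox17 the highest Flox library. This was not particular to the pair. Prss2 was at 30112 FPKM in cKO9 and 23335 FPKM in Flox17, the same order, and Cpa1, Cela2a, Gamt, Slc38a5 and Smim38 had it too. Tdh and Slc30a2 did not share an order in high-fat diet islets. There Slc30a2 was at 1.51 and 1.47 FPKM in Ctrl2 and Ctrl3, its highest values in that table, and Tdh was highest in OE4 and Ctrl5.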

How the data were processed

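Pancreatic islet RNA was sequenced on an Illumina NovaSeq instrument, and the authors deposited 2 tables of FPKM values, 1 with the 8 cKO and Flox libraries and 1 with the 8 Ctrl and OE libraries, made on mm10 per the labels. Read counts were not used here, so the absolute depth of each library is unknown. Depth relative to the median of its table, read from the whole steps of low values, was 0.942 to 1.075 in cKO and Flox libraries and 0.841 to 1.084 in Ctrl and OE libraries. The aligner, counter and annotation are not given in the sources used here. Labels for the high-fat diet groups are abbreviated, and libraries were matched to them by column name and number. The values are normalised to each library's mapped reads, so a larger acinar share lowers the values of all other genes.

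The members and lists were chosen with earlier results of these data known. Named genes are the 10 members, Prss2, Cpa1, Cela2a, Vtcn1, the list genes with an adjusted p under 0.05 (up to 4 per direction, otherwise the 2 most abundant) and the 5 genes most like Tdh. The list genes named for their slope on the acinar score are an exception, chosen after their values were seen. Genes whose mean within a table reached 0.5 FPKM were tested in limma 3.58.1 (R 4.3.3) on log2(FPKM + 0.5), with trend and robust fitting, two-sided, and p-values were adjusted by Benjamini-Hochberg over all genes tested. Tests were made only within a table. The slope fit left out Prss2, Cpa1 and Cela2a. Each fit was run on simulated data as a check of the code only. The simulated spread for OE and Ctrl came from OE libraries alone, and the simulated acinar score was evenly spaced. The check therefore does not cover the wide spread of the Ctrl libraries. Locations are from GENCODE vM21 and RefSeq on GRCm38, the assembly of mm10. Alternatives were other pseudocounts, filters and scalings, the acinar score as a term, a replicate block and leaving out libraries.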

Additional observations from a re-analysis of the deposited data

Results flagged for a closer look

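In 40 groups of 4 libraries, 5 held a value whose gap to its nearest neighbour exceeded Dixon's 95% critical value as a share of the group's range, where chance gives about 1 in 20. Tdh was at 1.61 FPKM in Flox17 against 0.04999 to 0.0846 FPKM in the other Flox libraries. Slc30a2 was at 0.960 FPKM in Flox17 against 0.247 to 0.306 FPKM. Gamt was at 56.2 FPKM in cKO9 against 42.0 to 43.1 FPKM in the other cKO libraries. Gatm was at 87.5 FPKM in cKO8 against 112 to 116 FPKM, and Gnmt was at 30.5 FPKM in cKO12 against 23.3 to 23.7 FPKM. Acinar genes took 34.2% of all FPKM in Flox17 and 26.6% in Flox16, where Tdh was at 0.0846 FPKM. Their part in these values was not tested.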

How the results depend on the processing

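Absolute depth is unknown, and 4 libraries per group limit every comparison. There were 674 alternative values for single genes. Of these, 611 kept their direction and their side of the threshold, or moved by less than the residual SD where there was no test. A further 42 without a test moved by more. Among values with a test, 15 changed sign, whatever became of their call, and 6 kept their sign but lost their call. The 15 include the slopes of Gamt and Psat1 without Ctrl2 and Ctrl3, which also lost their call. They also include the slope of Slc38a5 without Ctrl5, which gained a call. Sign changes without a test, in cKO and Flox libraries, were not counted apart. Scaled to the acinar score, cKO minus Flox differences turned negative for Gcat (-0.74), Gatm (-0.39), Gnmt (-0.69), Phgdh (-0.65) and Psat1 (-0.99). They stayed positive for Tdh, Gamt, Slc38a5, Slc30a2 and Smim38. Genes called in OE against Ctrl libraries numbered 4, and 10 with every gene, 0 when libraries were scaled to the acinar score (limma, 2 at an unadjusted p under 0.05), 469 with the acinar score as a covariate (414 higher) and 649 without Ctrl2 and Ctrl3 (81 higher, 568 lower), an alternative chosen after seeing the data. In cKO against Flox libraries 155 genes were called (40 higher, 115 lower), and 84 with a pseudocount of 1, 307 with 0.1, 0 with every gene (349 at an unadjusted p under 0.05), 36 with median-of-ratios scaling (26 higher, 10 lower), 8778 when scaled to the acinar score (8 higher), 0 with the acinar score as a covariate, 272 without trend and robust fitting, 699 with the 3 libraries per group of the study's heatmaps and 18 to 507 when 1 library was left out; the fewest came without cKO9 and the most without Flox17. The unadjusted counts given here also required a log2 difference beyond 1 in size. Median-of-ratios scaling moved the median of all genes from -0.34 to -0.002 in cKO against Flox, from 0.44 to -0.004 in OE against Ctrl, and the median slope from -0.30 to -0.004.

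Genes rising with the acinar score in Ctrl and OE libraries numbered 300, and 487 with every gene, 1726 with median-of-ratios scaling, 541 without Ctrl2 and Ctrl3 and 248 to 361 when 1 library was left out. In cKO and Flox libraries they numbered 232, and 418 without the group term, 0 without Flox20 and Flox21 (169 at an unadjusted p under 0.05) and 113 to 374 when 1 library was left out.

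Samples with the same replicate number correlated at -0.215 to 0.122 in their deviations, so they share only a number, and no number pairs them in the labels. With the replicate block, 4 genes were called in OE against Ctrl, 268 in cKO against Flox (102 higher, 166 lower) and 43 rose with the acinar score in cKO and Flox libraries with group and replicate block. The slope of Gatm in Ctrl and OE libraries was then 0.23 (adjusted p = 0.0548), and the other 7 genes kept theirs.

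Among single genes in OE against Ctrl, differences turned positive for Gatm at 0.11 when scaled to the acinar score and 0.085 without Ctrl2, and for Gcat at 0.12 and Phgdh at 0.068 without Ctrl3. When 1 library was left out, the range was -0.42 to 0.085 for Gatm, -0.74 to 0.12 for Gcat and -0.92 to 0.068 for Phgdh, and -0.13 to 0.24 for the slope of Slc38a5. Without Ctrl2 and Ctrl3 they turned positive for Gcat at 0.79, Gamt at 0.74, Gatm at 0.46, Gnmt at 0.65, Smim38 at 0.84 and Phgdh at 0.87. The slope of Slc38a5 turned positive at 0.26 with median-of-ratios scaling, 0.19 without Ctrl3 and Ctrl5 and 0.24 without Ctrl5, and the slopes of Gamt and Psat1 turned negative at -0.057 and -0.043 without Ctrl2 and Ctrl3. Psat1 lost its call without Ctrl3 and Ctrl5 (0.24, adjusted p = 0.151). The causes were not tested.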
